A study of Mus musculus with 126 samples.

Results

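The genes described are the 76 whose symbol has the form Mrpl or Mrps followed by a number and at most 1 letter a to c, the names given to proteins of the large and the small subunit of the mitochondrial ribosome. They are 76 of the 23420 genes in a table of RNA-seq read counts from mouse embryonic stem cells, and all 76 were among the 15822 genes that passed the filter on low counts. By subunit, 49 belong to the large and 26 to the small subunit, with Mrps30 and Mrps18a counted in the large one despite their symbols. Mrps36 was left unclassified, because its product is now known as a subunit of the oxoglutarate dehydrogenase complex. The cells were the wild type J1 line or J1 cells with the genotype Dnmt1-/-, Dnmt3a-/-, Dnmt3b-/- (triple knockout, TKO), which lack the enzymes that set and maintain DNA methylation. Each genotype was treated for 36 h with Trichostatin A (TSA), an inhibitor of histone deacetylases, at a labelled 5 ng/µl, or with 0.0033% DMSO, its solvent. All cells were grown on gelatin in medium with serum and leukaemia inhibitory factor. Each of the 4 groups, which are 2 genotypes with either treatment, had 2 libraries. The labels do not say whether the TKO cells are 1 clone or whether the 2 libraries of a group came from separate cultures, so the p-values may measure only technical spread.

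The mitochondrial ribosome translates the few mRNAs of mitochondrial DNA, which encode core subunits of the respiratory chain and the ATP synthase. All of its proteins are encoded in the nucleus, made by cytosolic ribosomes and imported. Part of them descend from bacterial ribosomal proteins and part were added in the mitochondrial lineage. The small subunit decodes mRNA and the large subunit forms peptide bonds next to a stalk that recruits translation factors. Many of these genes have CpG-rich promoters, which are usually unmethylated, and NRF1, GABPA, YY1 and SP1 are known regulators of nuclear genes for mitochondrial proteins. The series also assayed transcription factor binding, which was not analysed here, so nothing below shows a factor at any of these promoters.

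RefSeq promoter windows from build GRCm38.p6 (mm10), 250 bases before to 50 bases after an annotated start, were matched to 67 members by symbol. The nearest RefSeq start within 1000 bases of the start in the count table was used, and 58 of the 67 lay within 50 bases of it. For Mrps21, Mrpl20, Mrps10 and Mrpl48 the distance was 895, 740, 310 and 305 bases, so their windows may miss the counted start. The 200 bases upstream of the start are shown for 6 members that the results turn on, with no exon of the count table inside them. They were chosen after their values were seen. Mrpl12 and Mrps18b are among the strongest decreases with TSA, Mrpl32 has the most NRF1 letters, Mrpl33 rose with TSA, Mrpl52 has GABPA letters and a high level, and Mrps24 differed by genotype. Capitals mark matches, on either strand, to GCGCATG (NRF1), CCGGAAG (GABPA), AAGATGG (YY1), GGGCGG (SP1) and CACGTG (MAX), some of which overlap.
Mrpl12 (chr11:120484437-120484636, plus strand): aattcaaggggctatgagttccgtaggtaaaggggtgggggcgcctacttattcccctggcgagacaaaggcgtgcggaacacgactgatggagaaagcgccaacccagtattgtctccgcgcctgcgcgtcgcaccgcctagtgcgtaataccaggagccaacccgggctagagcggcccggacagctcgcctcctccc
Mrpl32 (chr13:14613038-14613237, minus strand): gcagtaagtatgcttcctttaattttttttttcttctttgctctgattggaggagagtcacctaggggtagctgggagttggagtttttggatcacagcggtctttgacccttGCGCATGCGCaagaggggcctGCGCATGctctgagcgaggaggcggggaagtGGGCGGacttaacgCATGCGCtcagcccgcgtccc
Mrpl33 (chr5:31613751-31613950, plus strand): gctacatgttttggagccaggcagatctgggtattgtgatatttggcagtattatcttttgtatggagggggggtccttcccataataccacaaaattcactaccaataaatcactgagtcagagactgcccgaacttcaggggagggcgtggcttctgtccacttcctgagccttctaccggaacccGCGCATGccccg
Mrpl52 (chr14:54426709-54426908, plus strand): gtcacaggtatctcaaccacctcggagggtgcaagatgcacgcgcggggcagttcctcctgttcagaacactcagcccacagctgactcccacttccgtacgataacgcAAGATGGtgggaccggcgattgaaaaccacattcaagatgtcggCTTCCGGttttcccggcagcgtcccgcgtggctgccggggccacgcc
Mrps18b (chr17:35916441-35916640, minus strand): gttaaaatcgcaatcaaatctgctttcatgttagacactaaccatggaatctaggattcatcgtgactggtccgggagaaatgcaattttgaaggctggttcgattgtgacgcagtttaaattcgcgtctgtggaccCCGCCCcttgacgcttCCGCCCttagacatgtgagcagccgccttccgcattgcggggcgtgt
Mrps24 (chr11:5707702-5707901, minus strand): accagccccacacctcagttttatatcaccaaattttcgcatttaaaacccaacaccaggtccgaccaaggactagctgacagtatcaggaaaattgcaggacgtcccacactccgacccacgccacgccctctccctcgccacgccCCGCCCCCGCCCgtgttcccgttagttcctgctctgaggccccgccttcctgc
The stretch of Mrpl12 holds none of the 5 motifs. That of Mrpl32 holds 4 NRF1 matches, of which 2 overlap as a palindrome, and 1 SP1 match. RefSeq's start lies 71 bases from the start in the count table for Mrps18b and 32 bases for Mrpl12. Mrps18b also has NRF1 letters at 222 bases before and 29 bases after the RefSeq start, outside the stretch shown. By position from that start, unmarked GABPA letters lie at 43 in Mrps18b, 2 in Mrpl52 and -3 in Mrpl33. The match at -3 crosses the end of the stretch. YY1 letters lie outside it at 36 in Mrps24 and -241 in Mrpl32, and further NRF1 letters at -205 in Mrpl32.

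Over the 67 windows of 300 bases, 53 (79.1%) were CpG rich, with a ratio of observed to expected CpG of at least 0.6 and at least 50% GC. The same holds for 47.8% of all 15877 windows and for 65.5% of the 11101 windows of genes that passed the count filter. The members' median CpG ratio was 0.818, between 0.521 and 1.12, against 0.603 over all windows and 0.746 over windows of tested genes. GABPA letters stood in 23 windows (34.3%), against 12.2% of all windows and 16.7% of those of tested genes. YY1 letters stood in 13 (19.4%, against 6.67% and 6.84%) and NRF1 letters in 8 (11.9%, against 5.11% and 6.86%). SP1 letters stood in 33 (49.3%, against 48.3% and 63.9%) and MAX letters in 5 (7.46%, against 8.32% and 10.2%). Of the 67 windows, 16 (23.9%) held none of the 5. These shares describe letters and were not tested. By position, the median first base of a match was 19 bases before the start for GABPA and 14 bases after it for YY1, the latter within transcribed sequence.

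**Figure D1:**
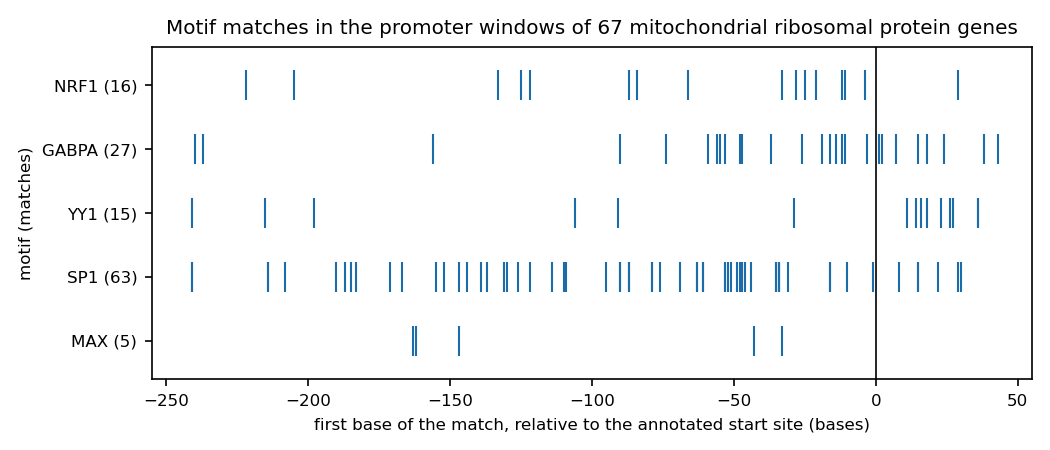
Position of each motif match in the promoter windows of 67 members, in bases from the annotated start (vertical line at 0); rows are motifs, with the number of matches in brackets, and each tick is the first base of 1 match. GABPA ticks gather near the start, with a median at -19, and YY1 ticks just after it, with a median at 14, while SP1 ticks spread upstream.

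Total counts were 13280631 to 15542527 per library, so 3 counts correspond to 0.193 to 0.226 CPM, the counts scaled by edgeR to a common library size with TMM factors. The targeted genes were lower in TKO. Dnmt3b was at 596 and 588 CPM in wild type DMSO and 46.2 and 43.6 in TKO DMSO, and all 3 targeted genes were called lower in TKO under both treatments. All 12 embryonic stem cell markers examined were present, Pou5f1 (Oct4) among them, and their CPM were summed per library. In wild type the sum was 4794 and 5094 with DMSO against 2886 and 2556 with TSA, and in TKO 5572 and 5943 against 2973 and 2635. TSA lowered 10 of the 12 in each genotype. Of 10 fibroblast markers 9 were tested, and 6 rose and 1 fell with TSA in wild type while 9 rose in TKO. Their summed level in wild type was 87.0 and 75.4 CPM with DMSO against 156 and 153 with TSA, and in TKO 47.3 and 43.8 against 108 and 125. The fibroblast marker Dcn was at 0 in both TKO TSA libraries and Lum at 0 in 1 library of each DMSO group. The 6 endoderm markers summed to at most 32.4 CPM in any library, with 1 of 6 higher with TSA in wild type and 2 of 6 in TKO. The 6 neural markers summed in wild type to 421 and 339 CPM with DMSO against 210 and 178 with TSA, and in TKO to 318 and 289 against 160 and 167, with 3 lower and 1 higher in wild type and 2 lower and 2 higher in TKO. Marker levels also differed by genotype. In TKO against wild type, 5 of 12 stem cell markers were higher in DMSO, and 5 higher and 1 lower with TSA. Of 6 endoderm markers 4 were higher in DMSO (median log2 fold change 2.29) and 3 with TSA (median 1.28). Of 9 fibroblast markers 3 were lower and 1 higher under each treatment, and of 6 neural markers 1 was lower in DMSO, and 1 higher and 1 lower with TSA. Among all genes tested, TSA gave 27% higher and 25.9% lower in wild type, and 30.8% and 27.9% in TKO. TKO against wild type gave 9.63% higher and 10.7% lower in DMSO, and 10% and 8.38% with TSA. The endoderm counts with TSA lay near these shares, and the marker lists are short. The marker levels differed with treatment and genotype, and their part in the results below was not tested. In bulk RNA, fewer cells of a type and less RNA per cell cannot be told apart.

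In DMSO the 76 genes together took 0.503% and 0.499% of all counts in wild type and 0.509% and 0.517% in TKO. With TSA they took 0.446% and 0.442% in wild type and 0.444% and 0.442% in TKO. Summed normalised CPM went from 5363 and 5374 to 4170 and 4080 in wild type, and from 5409 and 5410 to 4275 and 4157 in TKO. All 4 TSA libraries lay below all 4 DMSO libraries on both scales, and the 2 genotypes lay close together within each treatment. Per kilobase of exon, the mean over 8 libraries ran from 2.52 to 138 CPM per kb, with a median of 48.8 and quartiles at 35.2 and 61.0. The highest levels per kb were those of Mrpl20 at 138 ± 10.7 (SD, n = 8), Mrpl13 at 131 ± 15.4, Mrpl18 at 129 ± 22.8, Mrpl24 at 128 ± 10.3 and Mrpl52 at 126 ± 9.06. These SDs also hold the differences between groups, and the order was not the same in each group. In TKO DMSO, Mrpl18 at 149 ± 5.32 CPM per kb (SD, n = 2) and Mrpl20 at 142 ± 3.93 lay above Mrpl13 at 109 ± 1.09. In TKO TSA, Mrpl18 at 104 ± 1.20 lay below Mrpl20 at 139 ± 6.79 and Mrpl13 at 137 ± 0.123. Mrpl20 and Mrpl18 overlapped within their SDs in TKO DMSO, and Mrpl20 and Mrpl13 in TKO TSA. The lowest were Mrps36 at 2.52 ± 0.977, Mrpl23 at 4.04 ± 1.34, Mrps33 at 8.19 ± 0.649, Mrpl41 at 9.23 ± 2.67 and Mrpl19 at 12.8 ± 3.49. Mrpl23, Mrps33, Mrps36, Mrpl27, Mrpl48 and Mrpl51 have annotated pseudogenes, and since the treatment of reads that map to several places is not given in the sources used here, the counts of these 6 are uncertain. Pseudogenes were found by the member's name in a symbol or synonym, so others may have been missed. More than 10% of the exon bases overlap another gene in Mrps25 (58.3%), Mrpl41 (41.4%), Mrpl24 (37.4%), Mrpl19 (22.9%), Mrps6 (18.6%), Mrps27 (17%) and Mrpl48 (10.1%), whose counts may include or lose reads of the neighbour.

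**Figure D2:**
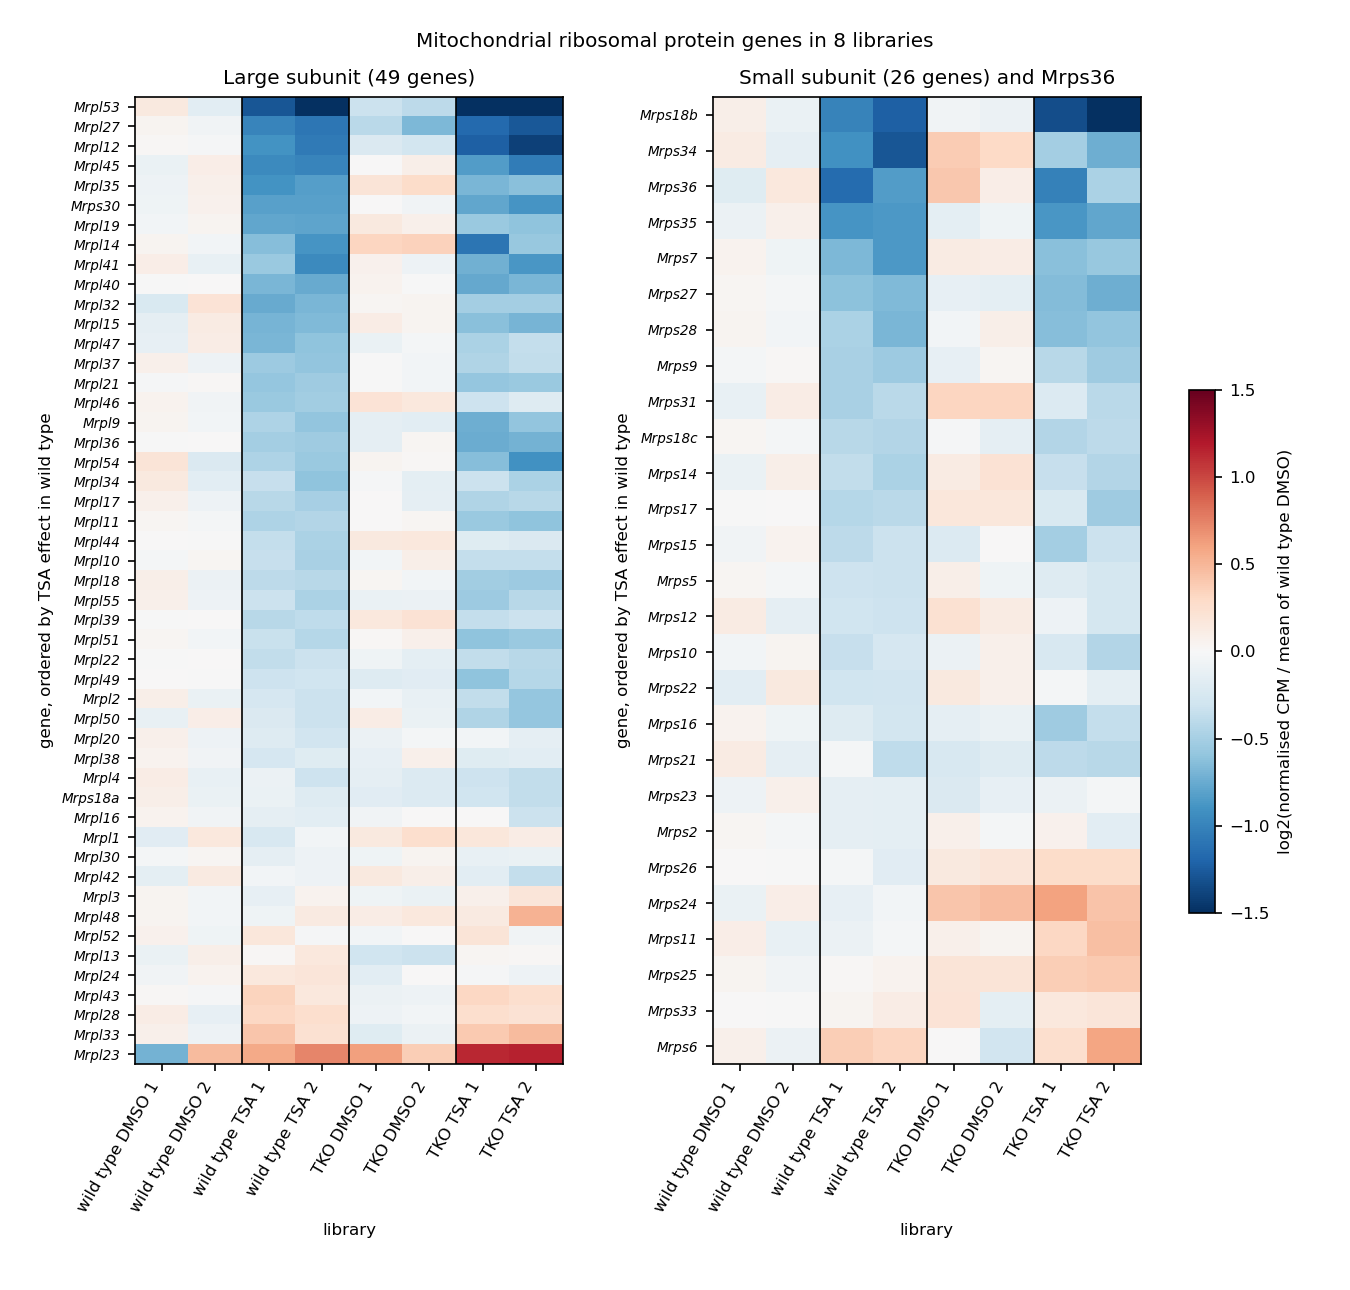
Level of each of the 76 genes in each library as log2 of its normalised CPM over the wild type DMSO mean, with large subunit genes on the left and small subunit genes and Mrps36 on the right, ordered by the TSA effect in wild type; colours saturate at -1.5 and 1.5 on this log2 scale. Blue in the TSA columns of both genotypes covers most rows, and a few rows, Mrpl23 and Mrps6 among them, are red there.

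Deacetylase inhibition in cells with DNA methylation was addressed by TSA against DMSO in wild type. TSA lowered 44 of the 76 genes (57.9%) and raised 2, Mrpl33 and Mrpl28. Over all 15822 genes tested, 52.8% were called, 25.9% lower and 27% higher. The median log2 fold change was -0.40 for the 76 genes and 0.01 for all genes. Of the 76 estimates 65 were negative, against 7780 of all 15822. A decrease of more than 2-fold was estimated for 4 of the 76 and for 798 of all genes, about the same share. A gene was called at a Benjamini-Hochberg adjusted p below 0.05 over all genes tested, from edgeR's quasi-likelihood test, and fold changes below are log2 ± SE.

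Mrpl53 (chromosome 6, 83109108 to 83109932), a mitochondria-specific protein of the large subunit, fell most. It was at 32.2 and 26.2 CPM with DMSO and 12.0 and 9.51 with TSA, a log2 fold change of -1.44 ± 0.16 (adjusted p = 6.41e-05). Mrps18b (chromosome 17, 35910385 to 35916369), 1 of 3 paralogues of bacterial S18, fell from 63.6 and 55.7 CPM to 29.9 and 25.6, a log2 fold change of -1.10 ± 0.12 (adjusted p = 6.11e-05). Mrps34, a small subunit protein, fell from 32.1 and 26.9 CPM to 15.7 and 12.1 (-1.08 ± 0.16). Mrpl27, whose bacterial counterpart reaches the peptidyl transferase centre, fell from 20.0 and 18.7 CPM to 9.77 and 9.10 (-1.03 ± 0.16). The genes described singly as called were picked among those whose libraries do not overlap between the groups, so the lack of overlap is a condition and no result. Over all genes tested, 37.4% were lower and 39.6% higher without overlap in this comparison.

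Mrpl12 (chromosome 11, 120484669 to 120488754), the counterpart of the bacterial stalk protein L7/L12 that recruits translation factors, went from 148 and 145 CPM to 78.3 and 69.9. Its log2 fold change was -0.98 ± 0.10 with an adjusted p of 3.8e-05, the smallest of the 76 genes. Mrpl45, which sits near the polypeptide exit of the large subunit, went from 169 and 194 CPM to 93.9 and 91.4 (-0.97 ± 0.10). Mrps30, a large subunit protein in spite of its symbol, went from 105 and 115 CPM to 62.2 and 62.3 (-0.82 ± 0.09). The log2 fold change was -0.87 ± 0.10 for Mrps35 and -0.86 ± 0.10 for Mrpl35. Mrps36, at 1.93 and 2.43 CPM in DMSO and 0.977 and 1.22 in TSA, is the least abundant of the 10 strongest decreases. Its log2 fold change of -0.98 ± 0.35 (adjusted p = 0.036) lost its call without any 1 of the 4 wild type libraries, with values of -1.15, -0.82, -0.83 and -1.15 without DMSO replicate 1, DMSO replicate 2, TSA replicate 1 and TSA replicate 2. The other 9 of these 10 kept their call in every alternative fit and without each library.

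Both genes raised by TSA in wild type encode bacterial-type proteins of the large subunit. Mrpl33 was at 41.4 and 37.4 CPM in wild type DMSO and 52.4 and 46.3 in TSA (0.32 ± 0.11, adjusted p = 0.03). Mrpl28 was at 116 and 98.0 CPM against 133 and 127 (0.28 ± 0.10, adjusted p = 0.0319). Mrpl33 lost its call without wild type DMSO replicate 2 (0.25) or TSA replicate 1 (0.23), and Mrpl28 without any 1 of 5 libraries, with 0.16 without wild type DMSO replicate 2 as the lowest value. The other 4 were wild type TSA replicates 1 (0.25) and 2 (0.31) and TKO DMSO replicates 1 (0.27) and 2 (0.28).

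Without scaling beyond total counts, 27 genes were called lower and 7 higher and the median was -0.20, while the median of all genes moved from 0.01 to 0.22, with 5812 genes higher and 2433 lower in place of 4266 and 4092. Relative to the median of all genes the members' median was -0.41 under both scalings. A scaling factor shifts all genes alike, so this difference could not change with the scaling and is no test of it. The members' exons are short, with a median of 1053 bases against 2805 for all genes tested, and an offset for gene length brought this difference to -0.32, with 40 genes lower and 4 higher.

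In cells without the 3 methyltransferases, TSA lowered 48 of the 76 genes (63.2%) and raised 6. Over all genes tested 58.7% were called, 27.9% lower and 30.8% higher. The median log2 fold change was -0.37 for the members and 0.04 for all genes. The 2 TSA comparisons share no library. Of the 44 genes lowered in wild type 43 (97.7%) were also lowered in TKO, which is 89.6% of the 48, and no member was called in opposite directions. The same overlap over all genes was not computed, so it cannot be read as particular to the members. Mrpl34 was called lower only in the wild type comparison, and Mrpl42, Mrpl50, Mrps10, Mrps12 and Mrps16 only in the TKO one, calls whose difference is tested by the interaction below. Neither comparison called 21 members, among them Mrpl20, Mrpl24 and Mrpl52 of the 5 highest levels per kb. The share of all genes called in neither was not computed, and a relation to level was not tested.

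Mrps18b fell most in TKO, from 57.5 and 56.3 CPM to 23.7 and 20.8 (-1.36 ± 0.13, adjusted p = 1.1e-05). Mrpl53 fell from 23.3 and 22.3 CPM to 10.3 and 9.85 (-1.18 ± 0.17). Mrpl14, a bacterial-type protein at the subunit interface, fell from 17.5 and 17.8 CPM to 6.56 and 9.47 (-1.14 ± 0.19, adjusted p = 0.000474). Over all genes, 39.5% were lower and 42.5% higher without overlap in TKO, again a condition for naming these genes. Mrpl12 fell from 126 and 121 CPM to 62.5 and 55.4 (-1.06 ± 0.10) and Mrpl45 from 183 and 194 CPM to 101 and 87.7 (-0.99 ± 0.10). Mrps34, Mrpl35, Mrps30 and Mrpl54 changed by -0.96, -0.89, -0.81 and -0.79 on the log2 scale. Mrps36 was at -0.96 (adjusted p = 0.0273) and lost its call without TKO DMSO replicate 1 (-0.81) or TKO TSA replicate 1 (-0.73). The 10 strongest decreases in TKO share 8 genes with the 10 of wild type.

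The 6 genes raised by TSA in TKO were Mrpl33, Mrps6, Mrpl43, Mrpl13, Mrps11 and Mrpl28. Mrpl33 was at 34.8 and 37.0 CPM in DMSO and 51.9 and 54.8 in TSA (0.57 ± 0.11, adjusted p = 0.0012), and kept its call without each library. Mrps6, the counterpart of bacterial S6, was at 18.5 and 15.1 CPM against 21.8 and 27.8 (0.57 ± 0.16), and 18.6% of its exon bases are shared with Slc5a3 on the same strand. Mrpl13 was at 86.2 and 85.0 CPM against 108 and 108 (0.33 ± 0.10). Mrpl43 rose by 0.36 ± 0.10 and Mrpl28 by 0.29 ± 0.10. Mrps6 went to 0.42 without TKO DMSO replicate 2 and to 0.38 without TKO TSA replicate 2, and lost its call in both cases. Without TKO DMSO replicate 2, 1 of the 6 was still called, against 2 without TKO DMSO replicate 1 or TKO TSA replicate 2, and 4 without TKO TSA replicate 1. Without TMM scaling, 33 genes were called lower and 10 higher in TKO and the median was -0.22, with 5908 genes higher and 3267 lower over all genes in place of 4872 and 4412. The offset for gene length brought the members' median relative to all genes from -0.41 to -0.29 in TKO.

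**Figure D3:**
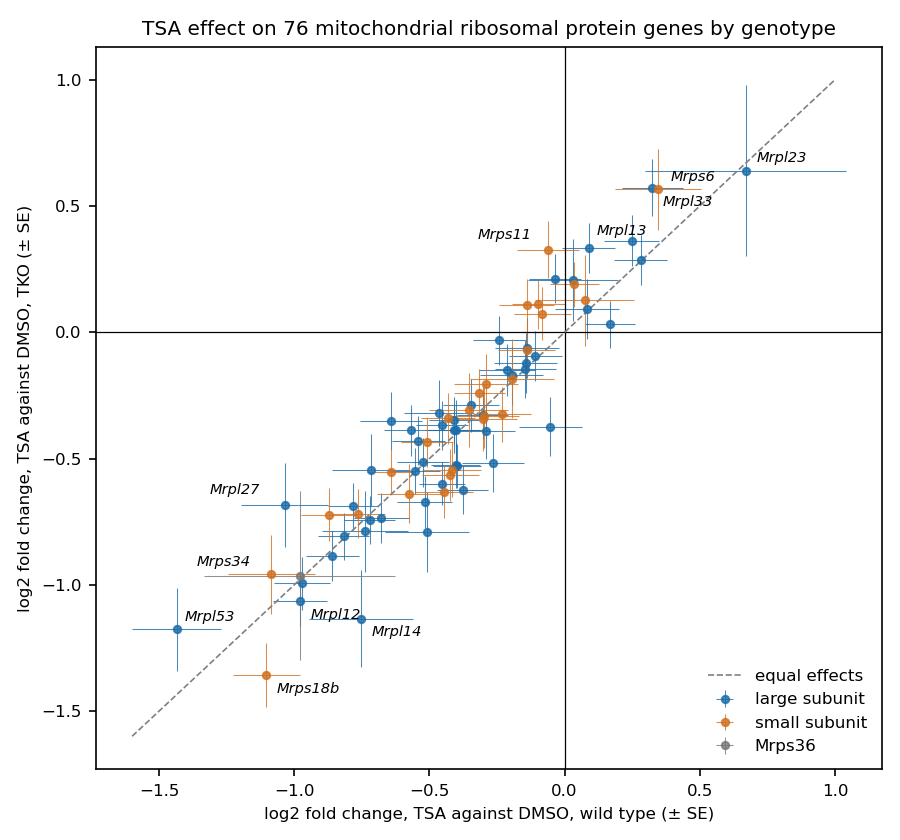
Log2 fold change of TSA against DMSO in TKO (vertical) against that in wild type (horizontal) for the 76 genes, with bars of 1 SE; blue points are large subunit genes, orange small subunit genes and grey Mrps36, and the dashed line marks equal effects. Points lie along the dashed line from Mrpl53 and Mrps18b at the lower left to Mrpl33, Mrps6 and Mrpl23 at the upper right, and Mrps11 lies above it.

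Whether the TSA effect differed between genotypes was tested by the interaction, the TKO log2 fold change less the wild type one. No member was called, against 1.35% of all genes (0.879% higher and 0.468% lower). The members' median interaction was 0.02, with quartiles at -0.05 and 0.12. At an unadjusted p below 0.05 there was 1 member in edgeR, and DESeq2 called none at an adjusted p below 0.05 and had none at the unadjusted threshold. The smallest adjusted p was 0.292, for Mrps11, and across the alternative fits and left-out libraries the smallest lay between 0.145 and 0.559. Mrps11 (chromosome 7, 78783131 to 78792988), a bacterial-type small subunit protein, was in wild type at 43.5 and 37.5 CPM with DMSO against 38.1 and 39.6 with TSA, and in TKO at 42.5 and 41.7 against 50.2 and 55.5. The TKO TSA libraries stand above the other 6, but the gene was picked for its small interaction p and was not called. The share of all genes with this order of libraries was not computed, so the order is no result. The interaction of Mrps11 was 0.39 ± 0.16, from -0.06 in wild type to 0.33 in TKO. Next by p came Mrpl42 (-0.32 ± 0.17), Mrpl51 (-0.25 ± 0.13), Mrpl47 (0.29 ± 0.16) and Mrpl3 (0.25 ± 0.14). These SEs leave room for differences as large as the interaction of Mrps11, and a missed threshold does not show that the 2 effects are alike.

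Bacterial ribosomal protein S18 has 3 mitochondrial paralogues, and 2 of their genes were lowered by TSA. Mrps18a, the paralogue in the large subunit, was at 43.9 and 38.4 CPM in wild type DMSO and 38.5 and 35.9 in TSA, and at 36.5 and 35.8 against 33.4 and 31.9 in TKO, and was not called in either genotype (-0.15 ± 0.11 and -0.15 ± 0.11). Mrps18c was at 57.4 and 54.9 CPM against 42.0 and 41.3 in wild type and at 55.3 and 51.2 against 41.2 and 42.9 in TKO, and fell in both (-0.43 ± 0.10 and -0.34 ± 0.10). Mrps18b fell in both by more than 1 on the log2 scale, as given above. The differences between paralogues were not tested. Per kilobase, Mrps18c was highest of the 3 in each group, between 83.0 ± 0.993 and 112 ± 3.64 CPM per kb (SD, n = 2). Mrps18b at 56.7 ± 5.30 CPM per kb lay above Mrps18a at 47.6 ± 4.48 in wild type DMSO, with SDs that overlap, and at 54.0 ± 0.775 against 41.8 ± 0.547 in TKO DMSO. With TSA the order was the reverse, with Mrps18b at 26.4 ± 2.89 against Mrps18a at 43.0 ± 2.07 in wild type and 21.1 ± 1.95 against 37.8 ± 1.25 in TKO.

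The effect of losing DNA methylation was addressed by TKO against wild type in each treatment. In DMSO, 2 of the 76 genes were higher and 2 lower in TKO, against 20.4% called over all genes, 9.63% higher and 10.7% lower. With TSA 4 were higher and 1 lower, against 18.4% called, 10% higher and 8.38% lower. The members' median was -0.01 in DMSO and 0.03 with TSA, with quartiles of -0.08 and 0.12, and of -0.09 and 0.15. The marker differences between genotypes given above stand beside these counts, and their part was not tested. The 2 genotype comparisons share no library, and Mrps24 was the gene higher in both. Mrps24 (chromosome 11, 5703983 to 5707699), a bacterial-type protein of the small subunit, was at 63.8 and 73.2 CPM in wild type DMSO and 91.6 and 94.6 in TKO DMSO (0.44 ± 0.11, adjusted p = 0.0128). With TSA it was at 62.9 and 66.3 in wild type and 104 and 92.0 in TKO (0.60 ± 0.10, adjusted p = 0.00314). All 4 TKO libraries lay above all 4 wild type libraries. Separation within each treatment is a condition for naming the gene and no result. Within a treatment, 2 libraries against 2, 29.3% of all genes were higher in TKO without overlap in DMSO and 31.8% with TSA, and 30.5% and 31.2% lower. The share over all genes for 4 libraries against 4 was not computed. The call with TSA held in every alternative and without each library, and that in DMSO was lost without wild type DMSO replicate 1 (0.33) or TKO DMSO replicate 1 (0.47) or 2 (0.42).

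The other genotype calls were each lost when certain single libraries were left out. In DMSO, Mrps31 was at 114 and 132 CPM in wild type and 154 and 154 in TKO (0.33 ± 0.11, adjusted p = 0.0478). Mrpl27 was at 20.0 and 18.7 CPM against 14.6 and 12.1 (-0.53 ± 0.16, adjusted p = 0.0358), and Mrpl13 at 99.2 and 113 CPM against 86.2 and 85.0 (-0.31 ± 0.10, adjusted p = 0.0475). Each lost its call without TKO DMSO replicate 1 (0.33, -0.67 and -0.32) or 2 (0.33, -0.40 and -0.30). Mrpl27 and Mrps31 also lost it without wild type DMSO replicate 1 (-0.50 and 0.20) or wild type TSA replicate 1 (-0.53 and 0.33), and Mrps31 without wild type TSA replicate 2 (0.33). Mrpl27 and Mrpl13 lost it without wild type DMSO replicate 2 (-0.58 and -0.21), and Mrpl13 also without any 1 of the 4 TSA libraries (-0.31 each). DESeq2 called neither of the 2 lower genes.

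With TSA, Mrps11 was at 38.1 and 39.6 CPM in wild type and 50.2 and 55.5 in TKO (0.44 ± 0.11, adjusted p = 0.0195). Mrps26 was at 50.3 and 45.8 CPM against 62.1 and 62.4 (0.37 ± 0.10), and Mrps25 at 73.7 and 75.4 CPM against 94.1 and 95.1 (0.34 ± 0.09), with 58.3% of its exon bases shared with Nr2c2. Mrpl12 was at 78.3 and 69.9 CPM against 62.5 and 55.4 (-0.33 ± 0.10, adjusted p = 0.0411). The calls of Mrps11, Mrps26 and Mrps25 were lost without wild type TSA replicate 1 (0.42, 0.44 and 0.33), wild type TSA replicate 2 (0.47, 0.31 and 0.36) or TKO TSA replicate 2 (0.37, 0.37 and 0.34), those of Mrps26 and Mrps25 also without TKO TSA replicate 1 (0.38 and 0.35). The call of Mrpl12 was lost without wild type TSA replicate 1 (-0.25) or 2 (-0.41), TKO DMSO replicate 1 (-0.33) or 2 (-0.33), or TKO TSA replicate 2 (-0.25). All 4 genes higher in TKO with TSA belong to the small subunit. By count, 19 of 26 small subunit genes had a positive estimate there, against 22 of 49 large subunit genes. The median log2 fold change of all genes in this comparison was 0.004. The difference between the subunits was not tested.

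**Figure D4:**
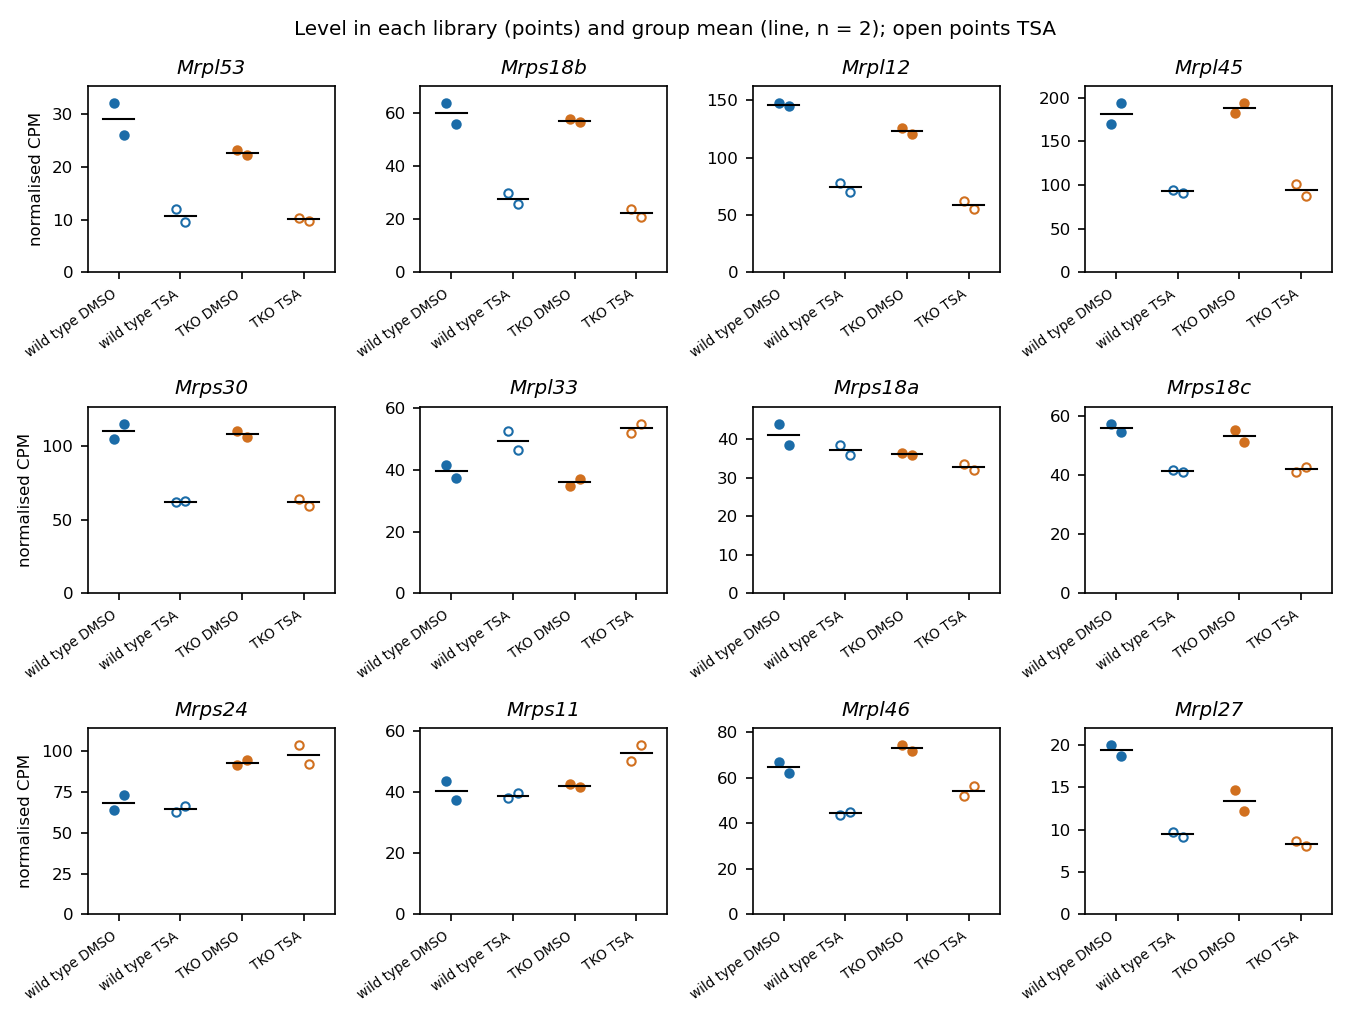
Normalised CPM of 12 members in each library, 1 panel per gene with the vertical axis from 0; points are libraries, filled for DMSO and open for TSA, blue for wild type and orange for TKO, and lines are means of 2. Mrpl53, Mrps18b, Mrpl12, Mrpl45 and Mrps30 are low in both TSA groups, Mrpl33 is high there, Mrps24 is high in both TKO groups, and Mrps11 is high in the TKO TSA group.

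Against wild type DMSO, the doubly changed TKO TSA cells had 48 members lower and 8 higher, with 61.9% of all genes called, 30.2% lower and 31.7% higher. The median was -0.40 for the members and 0.00 for all genes. With total counts only, 30 were lower and 12 higher, with a median of -0.23 for the members and 0.17 for all genes, and with 6064 genes higher and 3542 lower in place of 5015 and 4778. The offset for gene length brought the members' median relative to all genes from -0.40 to -0.26. This comparison shares libraries with each of those above. The strongest decreases were Mrpl53 (-1.54 ± 0.16), Mrps18b (-1.43 ± 0.13), Mrpl12 (-1.31 ± 0.10) and Mrpl27 (-1.21 ± 0.16), each by more than 2-fold. Mrpl45, Mrps30, Mrps35, Mrpl14, Mrpl41 and Mrpl54 changed by -0.94, -0.83, -0.83, -0.81, -0.80 and -0.77. The increases were Mrpl23 (1.16 ± 0.36), Mrps24 (0.52 ± 0.11), Mrpl33 (0.44 ± 0.11), Mrps6 (0.43 ± 0.16), Mrps11 (0.38 ± 0.11), Mrps25 (0.38 ± 0.09), Mrpl43 (0.28 ± 0.10) and Mrps26 (0.28 ± 0.10). Mrpl23 was at 0.928 and 2.11 CPM in wild type DMSO and 3.31 and 3.39 in TKO TSA, among the lowest levels of the 76 and with an annotated pseudogene, and lost its call without wild type DMSO replicate 1 (0.66) or TKO TSA replicate 2 (1.14). Mrps6 and Mrps11 lost theirs without wild type DMSO replicate 2 (0.35 and 0.27) or TKO TSA replicate 2 (0.25 and 0.31). Mrpl43 and Mrps26 lost theirs with DESeq2, with no filter, with the 4 libraries alone, and without either library of wild type DMSO or TKO TSA or TKO DMSO replicate 1, with values of 0.25 to 0.31 and 0.26 to 0.29, and Mrpl43 also without TKO DMSO replicate 2. Without TKO TSA replicate 2, 3 members were called higher in place of 8, and 5 without wild type DMSO replicate 2.

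Members of both subunits were lowered by TSA, and the difference between the subunits was not tested. In wild type TSA lowered 31 of 49 large subunit genes (63.3%, median -0.40) and 12 of 26 small subunit genes (46.2%, median -0.31), against 25.9% of all genes. In TKO it lowered 32 (65.3%, median -0.39) and 15 (57.7%, median -0.33), against 27.9% of all genes. The 2 genes raised in wild type are of the large subunit, and 2 of the 6 raised in TKO, Mrps6 and Mrps11, of the small. Leaving out the 6 members with an annotated pseudogene found by name gave 41 of 70 lower (58.6%, median -0.40) in wild type and 45 of 70 (64.3%, median -0.37) in TKO.

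Of 6 tested proteins of the mitochondrial ribosome that carry other names, 4 fell with TSA in each genotype, none rose and 2 were not called. Among all genes tested, 25.9% were lower in wild type and 27.9% in TKO. Chchd1, a small subunit protein, was at 73.8 and 74.6 CPM in wild type DMSO and 36.6 and 30.8 in TSA (-1.14 ± 0.11), and at 65.2 and 66.2 against 31.8 and 28.9 in TKO (-1.12 ± 0.11). Gadd45gip1 (CRIF1), a large subunit protein, was at -0.90 ± 0.10 in wild type and -1.25 ± 0.10 in TKO. Ict1, a peptidyl-tRNA hydrolase built into the large subunit, changed by -0.55 and -0.63, and Ptcd3 by -0.33 and -0.29. Dap3, a GTP-binding protein of the small subunit, was at -0.10 ± 0.09 and -0.02 ± 0.09, and Aurkaip1 at -0.18 ± 0.10 and -0.24 ± 0.10, neither called.

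Genes that assemble the mitochondrial ribosome fell in 14 of 26 cases in wild type, with 2 higher (median -0.39), and in 15 of 26 in TKO, with 2 higher (median -0.42). Among all genes tested, 25.9% were lower and 27% higher in wild type, and 27.9% and 30.8% in TKO. The strongest were Rpusd4 (-1.39 and -1.40) and Rpusd3 (-1.18 and -1.44), pseudouridine synthases of mitochondrial RNA. The helicases Ddx28 (-0.85 and -0.72) and Dhx30 (-0.68 and -0.66) also fell. The 2 genes that rose in both genotypes were Tfb1m (0.40 and 0.30) and Mettl15 (0.66 and 0.55), methyltransferases of the small subunit's ribosomal RNA. In DMSO, Ddx28 was lower in TKO than in wild type (-0.76, adjusted p = 0.00125).

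Mitochondrial translation factors fell in 5 of 15 cases in wild type, with 1 higher (median -0.19, but 0.01 with total counts only), and in 8 of 15 in TKO, with 1 higher (median -0.26). The share lower in wild type, 33.3%, lay near the 25.9% of all genes tested. In TKO 27.9% of all genes were lower, and 27% and 30.8% were higher in wild type and TKO. The recycling factor Mrrf changed by -0.83 and -0.51, and the insertase Oxa1l by -0.64 and -0.49. Slirp and Lrpprc, partners that bind mitochondrial mRNAs, moved apart, with Slirp at -0.51 and -0.64 and Lrpprc at 0.30 and 0.27, all called. Mitochondrial aminoacyl-tRNA enzymes fell in 10 of 21 cases in wild type and 13 of 21 in TKO, with 1 higher in each (medians -0.34 and -0.32). Genes for transcription and replication of mitochondrial DNA fell in 4 of 9 and 5 of 9, with 1 higher in each.

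Cytosolic ribosomal protein genes were also lowered. Of 75 tested, 51 fell with TSA in wild type (68%, median -0.44) and 61 in TKO (81.3%, median -0.52), and none rose. For this list and those below, 25.9% of all genes tested were lower and 27% higher in wild type. The shares in TKO were 27.9% and 30.8%. Nuclear genes of oxidative phosphorylation, whose products join the subunits that mitochondrial ribosomes make, fell in 32 of 80 cases in wild type, with 11 higher (median -0.18, but 0.03 with total counts only). In TKO 43 of 80 fell and 10 rose (median -0.31). The median of the mitochondrial ribosomal protein genes lay between those of these 2 lists in both genotypes, and the differences between lists were not tested. Genes of the mitochondrial stress response fell in 12 of 15 cases in each genotype (medians -0.80 and -0.61), and 1, Asns, rose in TKO (0.36), with Atf4, its transcription factor, at -1.48 and -0.55 and the target Chac1 at -3.27 and -1.97. The chaperone Hspd1 changed by -0.88 and -0.92.

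**Figure D5:**
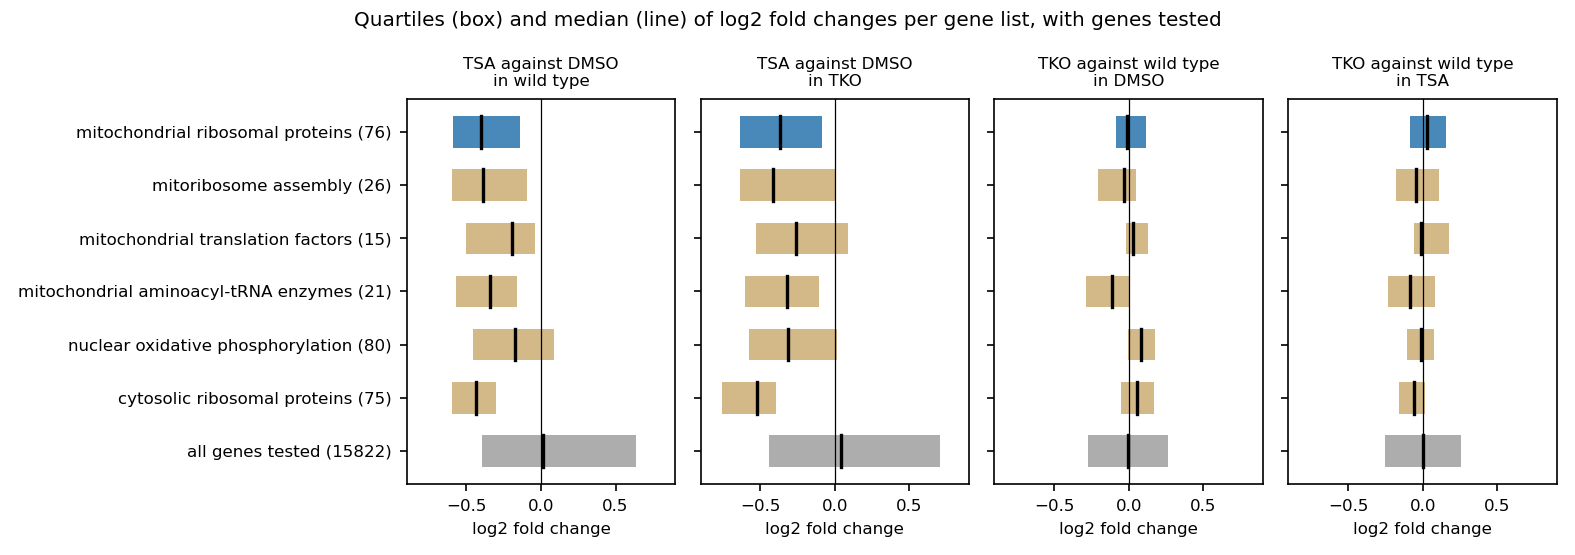
Log2 fold changes of 6 gene lists and of all genes tested in 4 comparisons, with genes tested per list in brackets; boxes span the quartiles and the thick line is the median. In the 2 TSA panels the box of the mitochondrial ribosomal protein genes lies below 0, with medians of -0.40 and -0.37, and in the 2 genotype panels all medians lie near 0.

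Of the genes for the 5 factors whose letters were searched, Gabpa was called lower with TSA in both genotypes, and no other was called in either TSA comparison. It was at 228 and 296 CPM in wild type DMSO and 182 and 193 in TSA (-0.48 ± 0.12, adjusted p = 0.00669), and at 303 and 300.3 against 215 and 189 in TKO (-0.58 ± 0.12, adjusted p = 0.00185). Among the DMSO libraries, wild type replicate 1 was lowest. Nrf1 was at 121 and 105 CPM against 94.9 and 95.6 in wild type (-0.25 ± 0.10, adjusted p = 0.0513) and at -0.08 ± 0.10 in TKO, not called. Yy1, Sp1 and Max were at -0.18 ± 0.12, 0.02 ± 0.09 and 0.12 ± 0.10 in wild type and at -0.07 ± 0.12, -0.20 ± 0.09 and 0.17 ± 0.10 in TKO. Pprc1, a coactivator related to PGC-1, fell from 117 and 108 CPM to 61.2 and 54.7 in wild type (-0.96 ± 0.10) and from 107 and 104 to 49.7 and 52.0 in TKO (-1.05 ± 0.10). Myc, a regulator of ribosome genes, changed by -1.27 ± 0.20 and -1.09 ± 0.21, and Mycn by -0.59 ± 0.17 and -1.17 ± 0.17. Ppargc1a was at or under 0.340 CPM in every library and was not tested. A change in a factor's mRNA shows nothing of its protein or its binding.

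Some of these genes start back to back with another gene. A neighbour on the other strand started within 1000 bases for 26 of the 76 (34.2%), against 12.2% of all genes tested. The neighbour was tested in 23 pairs, of which 1 joins 2 members and 22 join a member to another gene. In these 22 pairs TSA lowered 17 members and 13 neighbours in wild type, where 25.9% of all single genes were lower, and both genes in 10 pairs. In TKO it lowered 19 members and 15 neighbours, where 27.9% of all single genes were lower, both genes in 13 pairs, and raised 1 neighbour. How many pairs with both lower these separate counts would give was not computed. The pair counts therefore do not show that neighbours change together. The median log2 fold change of the 22 neighbours was -0.42 in wild type and -0.47 in TKO. Mrpl27 and Eme1 start 37 bases apart and changed by -1.03 and -0.86 in wild type, and Mrpl21 and Ighmbp2, also 37 bases apart, by -0.56 and -1.06. Mrpl47 and Ndufb5, a gene of respiratory complex I, changed by -0.64 and -0.62. The neighbour raised in TKO was Tmem63b, by 0.49, beside Mrpl14, which changed by -1.14. Mrpl13 was at 0.09 ± 0.10 in wild type, not called, where Mtbp fell by 0.95.

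Mrpl46 and Mrps11 are themselves such a pair, with starts 42 bases apart on chromosome 7. Mrpl46, a large subunit protein, was at 66.9 and 62.2 CPM in wild type DMSO and 43.8 and 44.9 in TSA (-0.54 ± 0.10, adjusted p = 0.00101), and at 74.4 and 71.8 against 52.1 and 56.4 in TKO (-0.43 ± 0.10). Mrps11 was not called in wild type (-0.06 ± 0.11) and was higher with TSA in TKO (0.33 ± 0.11, adjusted p = 0.0263), a call lost without TKO DMSO replicate 1 (0.34) or 2 (0.31) or TKO TSA replicate 2 (0.25).

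Set against the letters in their windows, 7 of the 8 members with NRF1 letters were lower with TSA in wild type and 1, Mrpl33, was higher, with the same counts in TKO. Of all 67 members with a window 38 (56.7%) were lower in wild type and 42 (62.7%) in TKO, and of all genes tested 25.9% and 27.9%. Of 23 members with GABPA letters 11 were lower in wild type (47.8%) and 12 in TKO (52.2%). Of the 16 with none of the 5 motifs, 8 were lower in wild type (50%) and 10 in TKO (62.5%), Mrpl12 and Mrpl45 among them. Of 53 members with a CpG-rich window 30 were lower in wild type (56.6%), and of the other 14 windows 8 (57.1%). In TKO these were 35 (66%) and 7 (50%). In DMSO, 2 members with a CpG-rich window were higher and 1 lower in TKO than in wild type, and none of the other 14 was called. These counts are small, the groups share members, and no difference between them was tested.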

How the data were processed

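RNA-seq was analysed in 8 libraries, and the other 118 samples of the series, from other assays, were not analysed here. The authors deposited 1 table of whole-number read counts per gene with exon coordinates and lengths, made from ribosome-depleted total RNA by directional paired-end sequencing per the labels' protocols. The submitters' processing notes name TopHat2 2.0.13, featureCounts 1.4.5-p1, edgeR 3.22.3 and mm10, and their settings, strand use and treatment of multiply mapped reads are not given in the sources used here. The counts were fitted with edgeR 4.0.16 (R 4.3.3; TMM factors, filterByExpr, quasi-likelihood test) with 1 mean per group; the 8 libraries give 4 residual degrees of freedom. Calls use Benjamini-Hochberg adjusted p-values over 15822 genes within each of 6 comparisons, and SEs are approximate, from the fold change and its F statistic. An exact permutation test of 2 libraries against 2 cannot give a p below 0.333 and was not used. The script was tested on simulated data.

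The members and gene lists were chosen with earlier results of these data known. Genes named in the text are, per comparison, up to 10 called increases and 10 decreases whose libraries do not overlap and average 1 CPM or more (5 by p for the interaction), the 5 highest and 5 lowest per kb, the Mrps18 genes, Mrps30, subunits without an Mrp symbol, the factors and targeted genes, and up to 5 called genes per other list. Others named, such as neighbours and examples from the lists, were chosen after their values were seen. Alternatives were other scalings, filters, a length offset, DESeq2 1.42.0, a replicate block, the 4 libraries compared, and leaving out each library. Replicates differed by more than counting noise, with a chi-square per degree of freedom of 5.28 to 12.2.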

Additional observations from a re-analysis of the deposited data

How the results depend on the processing

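Of the values for named members under the alternatives, 903 kept their side of the threshold, 112 lost their call and 0 called values reversed direction. Values called in neither the main fit nor the alternative, as for the interaction, were not checked for direction. Precision is limited by 2 libraries a group. TSA in wild type raised 5 members with upper quartile factors, 7 with total counts only, 4 with the length offset and 0 with only the 4 libraries compared, and lowered 27 with total counts only. TSA in TKO raised 10 with total counts only. TKO against wild type in DMSO gave 1 lower member with RLE factors, upper quartile factors, total counts only or no filter, 0 with DESeq2 or the 4 libraries, and 1 higher with the 4 libraries. With TSA it gave 0 lower with the length offset, DESeq2 or the 4 libraries, and 2 with the replicate block. TKO TSA against wild type DMSO gave 30 lower with total counts only and 5 higher with the 4 libraries. Beyond the fewer libraries and the scaling itself, the cause was not tested. Leaving out 1 library gave 0 to 2 higher and 32 to 45 lower for TSA in wild type, 1 to 6 and 36 to 49 for TSA in TKO, 0 to 3 and 0 to 1 for TKO in DMSO, 1 to 5 and 0 to 1 for TKO with TSA, 3 to 8 and 39 to 46 for TKO TSA against wild type DMSO, and 0 members for the interaction. The labels give replicate numbers but do not say that they pair samples. The correlation of deviations was 0.0586 to 0.366 over all pairs of groups, each positive, and a batch shared by replicate number was not tested. With the replicate block the counts of members higher and lower were 3 and 49, 6 and 49, 3 and 3, 6 and 2, 9 and 49, and 0 and 0, in the same order. Over all genes the block called 2025 higher and 2192 lower for TKO in DMSO, in place of 1523 and 1698. It also called more genes in the other comparisons.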
